A study of Mus musculus with 4 samples.

Results

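The histone genes of the mouse were compared between irradiated and unirradiated MC38 cells. They were taken by gene symbol, after the Ensembl identifiers had been matched to GENCODE release M21. The replication-dependent class holds every gene whose symbol starts with Hist1h, Hist2h, Hist3h or Hist4h. The variant class holds H1f0, H1fx, H2afx, H2afz, H2afv, H2afy, H2afy2, H2afj, H3f3a and H3f3b, and Slbp and Npat were added as genes that serve histone messenger RNA. The rule found 82 genes in the annotation, of which 63 were among the 26561 genes of the count table: 51 replication-dependent genes, all 10 variants and both processing genes. The other 19 were replication-dependent genes and were not analysed here. Of the 51, 6 encode linker histone H1, 11 encode H2A, 14 encode H2B, 9 encode H3 and 11 encode H4. They lie on chromosome 13 (45 genes), chromosome 3 (4 genes) and chromosome 11 (2 genes), and 1 of them, Hist1h2aj, is annotated as a pseudogene.

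MC38 is a mouse colon tumour line, labelled as an epithelial cell line, and all libraries were of wild-type genotype. The irradiated group had received 30 Gy of X-rays in 1 fraction, 60 h before, and holds 2 libraries (IR), against 2 libraries of cells that were not irradiated (nonIR), for which no source used here gives a harvest time. The labels do not say whether libraries of the same group came from separate cultures, so p-values measure only how far these libraries differ, and that spread may be technical. The irradiated libraries held 29180110 and 26059171 counts and the unirradiated ones 27995608 and 29881492, and the irradiated libraries had 22713 and 22663 genes above 0, against 19413 and 19531 in the unirradiated ones. The epithelial label was not met by most of its markers: 10 of 12 were under 1 CPM (counts per 1e+06, with TMM scaling) or had no row, Epcam averaged 0.0188 CPM in irradiated and 0 in unirradiated cells, and of the 12 only Cdh1 reached 10 CPM. Of 9 mesenchymal markers 7 reached 10 CPM, and their sum was 6692 and 6749 CPM in the irradiated libraries, against 5724 and 5754 CPM in the unirradiated ones. Vim, the highest of them, averaged 3570 CPM in irradiated and 4280 CPM in unirradiated cells. Summed leukocyte markers were 39.3 and 33.3 CPM in the irradiated libraries, against 4.99 and 4.11 CPM in the unirradiated ones, and Cd68 alone of the 8 reached 1 CPM, with Ptprc at 0.723 CPM in irradiated and 0.285 CPM in unirradiated cells. The part of these markers in the histone values was not tested.

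Histones package DNA into nucleosomes. The replication-dependent genes lie in clusters and are expressed mainly in S phase, when new DNA has to be packaged, and their messages end in a conserved stem-loop in place of a poly(A) tail. The stem-loop is bound by the protein that Slbp encodes, and NPAT drives transcription of the clusters. Variant genes are expressed outside S phase too and mostly give polyadenylated messages: H3.3 (H3f3a and H3f3b) is put into chromatin at active genes, H2A.Z (H2afz and H2afv) sits near promoters, H2A.X (H2afx) is phosphorylated beside DNA breaks, macroH2A (H2afy and H2afy2) carries a large extra domain, and H1.0 (H1f0) accumulates in cells that have stopped dividing.

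The letters of the histone stem-loop divide the classes by sequence, and are shown because they mark messages that can end without a poly(A) tail. The pattern searched was GG, 2 bases of any kind, CTTTT, 1 base of any kind, AG, 2 bases of any kind and CC, on the sense strand only, after the stop codon of the longest protein-coding transcript. It was found in 34 of the 51 replication-dependent genes (66.7%) and in 1 of the 10 variants, H2afx. Anywhere in the longest transcript, it was in 69 of 21901 protein-coding genes (0.315%). The search covered annotated bases only, so a gene without a match may have an annotation that ends before its stem-loop. Among genes without a match, the longest transcript had 312 bases in Hist1h4k and 381 in Hist1h2bl and Hist1h2bn. The 4 replication-dependent genes that fell and had a match are given, and H2afx, with the 16 letters of the match in capitals and 5 bases on each side in lower case, from GENCODE transcripts placed on GRCm38:
Hist1h1c, chr13:23739507-23739532, plus strand: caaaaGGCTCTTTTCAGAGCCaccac
Hist1h4i, chr13:22040961-22040986, minus strand: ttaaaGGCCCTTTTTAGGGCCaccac
Hist1h4d, chr13:23581945-23581970, plus strand: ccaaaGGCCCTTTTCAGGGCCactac
Hist1h1d, chr13:23555782-23555807, plus strand: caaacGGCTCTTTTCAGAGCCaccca
H2afx, chr9:44335235-44335260, plus strand: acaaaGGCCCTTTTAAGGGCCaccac
Among the 43 annotated replication-dependent genes with a match, 25 carried the letters of Hist1h1c, 7 those of Hist1h4d and 2 those of Hist1h4i. In these transcripts the annotation continues past the stem-loop, by 840 bases in Hist1h1c, 330 in Hist1h4i, 770 in Hist1h4d, 4884 in Hist1h1d and 822 in H2afx. A poly(A) signal, AATAAA or ATTAAA in the last 50 bases of the longest transcript, was present in 15 of 51 replication-dependent genes (29.4%), in 8 of 10 variants and in 72.2% of all protein-coding genes.

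Of the 51 replication-dependent genes, 14 had enough counts to be tested. Of these, 7 fell with edgeR at an adjusted p under 0.05 and 0 rose, beside 30.3% of all 15298 genes tested that fell and 30.4% that rose (60.7% in either direction). None of the 14 rose at an unadjusted p under 0.05 either, and 0 rose with DESeq2. A gene could pass the filter through either group alone, so the 14 are not a sample of the 51. Hist1h4d, at 0 in both irradiated libraries, and Hist1h1d, at 0 in irradiated replicate 1, passed only with unirradiated libraries, where they were higher. Hist1h3c, Hist1h1e and Hist1h2bg, with 4, 8 and 9 counts in irradiated replicate 1, also needed unirradiated libraries to pass. So did Hist1h3g, with 11 and 8 counts in irradiated cells, against 21 and 8 in unirradiated cells. All of these had negative fold changes. That route favours genes that fell, and Hist1h4d and Hist1h1d are among the 7. These counts and the median therefore describe only the genes that passed. Without the filter 6 of the 51 fell and 0 rose, beside 4660 and 4556 of all 26561 genes. Hist1h1c, Hist1h2bc, Hist2h2be, Hist1h4i, Hist1h4k, Hist1h1d and Hist1h4d fell. Over the 14 the median was 0.499 of the unirradiated level, and Hist1h4d, whether at its fitted value or at its bound, left it unmoved, beside a median of 1.01 over all genes tested. Both irradiated libraries lay below both unirradiated ones for 9 of the 14, and above for 1, beside 38.7% and 39.7% of all genes tested. In bulk RNA, fewer cells that express a gene and less of its RNA per cell cannot be told apart.

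Hist1h1c (linker histone H1.2, chr13:23738808-23740367) had 650 and 487 counts in the irradiated libraries, against 1738 and 1797 in the unirradiated ones. Its level was 20.1 ± 2.47 CPM in irradiated and 62.4 ± 1.2 CPM in unirradiated cells (SD, n = 2 libraries each, as for all values here). It fell by 1.63 on the log2 scale (SE 0.0788, edgeR adjusted p = 5.5e-93), and the groups did not overlap.

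Hist1h2bc (H2B, chr13:23684199-23692908) had 550 and 440 counts in irradiated cells, against 1184 and 1126 in unirradiated cells. It fell by 1.22 (SE 0.0926, edgeR adjusted p = 3.23e-38). Hist2h2be, an H2B gene on another chromosome (chr3:96221119-96223738), had 353 and 325 counts in irradiated cells, against 597 and 693 in unirradiated cells, and fell by 0.92 (SE 0.118, edgeR adjusted p = 3.6e-14). Neither overlapped between groups, and neither had the stem-loop letters in its longest transcript. Hist2h2be had a poly(A) signal and Hist1h2bc had none in the last 50 bases.

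The H4 genes had fewer counts. Hist1h4i (chr13:22040636-22041362) had 69 and 33 counts in irradiated cells, against 215 and 267 in unirradiated cells, and fell by 2.24 (SE 0.233, edgeR adjusted p = 6.03e-21). Hist1h4d (chr13:23581598-23582735) had 0 and 0 counts in irradiated cells, against 15 and 15 in unirradiated cells. It was at least 9.94-fold lower in irradiated cells, against a floor of 3 counts over the group (edgeR adjusted p = 5.6e-05). Hist1h4k (chr13:21750194-21750505) had 19 and 21 counts in irradiated cells, against 46 and 40 in unirradiated cells, and fell by 1.09 (SE 0.493, edgeR adjusted p = 0.0453). Of its 50-base windows, 28.5% were absent from the transcripts of all other genes, so its counts depend on how reads that match several genes were treated. Its call was lost when any 1 library was left out (adjusted p between 0.0587 and 0.185), with the replicate block (adjusted p = 0.0644) and with DESeq2 (adjusted p = 0.0765).

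The H1 gene Hist1h1d (chr13:23553262-23560686) had 0 and 17 counts in irradiated cells, against 35 and 29 in unirradiated cells, and fell by 1.86 (SE 0.635, edgeR adjusted p = 0.00679). This call rested on irradiated replicate 1. Without that library the log2 fold change was -0.82 (adjusted p = 0.356), without unirradiated replicate 1 it was -1.68 (adjusted p = 0.0824), and with DESeq2 the adjusted p was 0.572.

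The other 7 genes tested were not called. Hist1h3c (H3) had 4 and 10 counts in irradiated cells, against 18 and 22 in unirradiated cells (log2 fold change -1.47, SE 0.721, edgeR adjusted p = 0.0659), and the groups did not overlap. Hist1h2be (H2B) had 61 and 59 counts in irradiated cells, against 42 and 59 in unirradiated cells, which gave 0.26 on the log2 scale (SE 0.356, edgeR adjusted p = 0.543). It shares 496 exon bases with Hist1h1e on the same strand. Hist3h2a, the 1 H2A gene tested, had 25 and 19 counts in irradiated cells, against 40 and 28 in unirradiated cells (log2 fold change -0.63, adjusted p = 0.302). Its exons share 708 bases with Trim17, which held 133% as many counts. Hist1h1b, Hist1h1e, Hist1h2bg and Hist1h3g had fold changes between -0.62 and -0.45 on the log2 scale, with overlapping groups. In Hist1h2bg the sign turned without unirradiated replicate 2 (0.23), and in Hist1h3g without unirradiated replicate 1 (0.28).

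**Figure D1:**
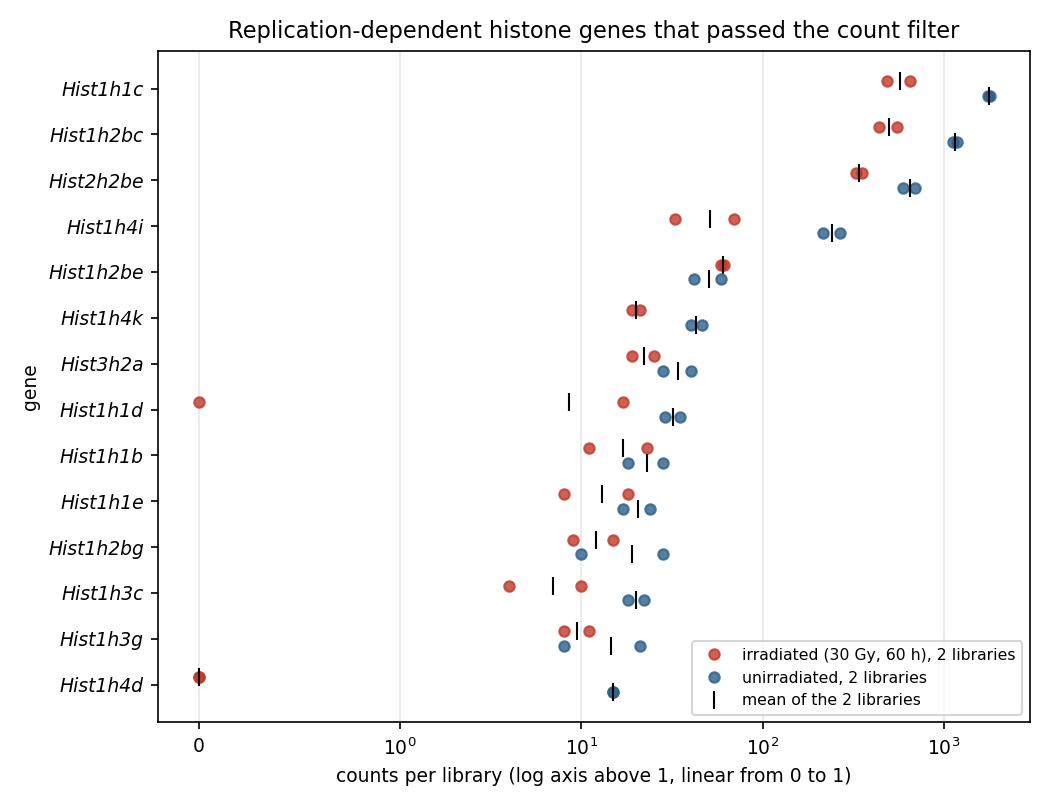
Counts per library of the 14 replication-dependent histone genes tested (x axis, log scale above 1, linear below) by gene (y axis), for irradiated (red) and unirradiated (blue) libraries, with the mean of each group as a black line. The 4 most counted genes lie lower in both irradiated libraries, and Hist1h4d is at 0 in both.

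The other 37 replication-dependent genes were too low to be tested. The highest total over the 4 libraries was 33 counts, for Hist1h4j, with 2 and 4 counts in irradiated cells against 9 and 18 in unirradiated cells. Hist1h3d had 5 and 2 counts in irradiated cells against 5 and 18 in unirradiated cells, and Hist2h3c2 had 15 and 1 counts in irradiated cells against 6 and 6 in unirradiated cells. Of the 37, 23 had the lower summed CPM in irradiated cells and 14 had the higher. The sums of all 37 were 103 and 51 counts in the irradiated libraries, against 107 and 171 in the unirradiated ones, so the first irradiated library and the first unirradiated library were close. Over the 51 genes, 24 had a count in every library and 19 had 10 or fewer counts in all 4 together.

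Counts were concentrated in a few genes with long annotated transcripts. Over the 4 libraries Hist1h1c held 4672 counts, Hist1h2bc 3300 and Hist2h2be 1968. The 15 replication-dependent genes whose longest transcript exceeds 1000 bases held 10565 of the 11837 counts of the class (89.3%), and 8 of them passed the filter. The other 36 genes held 1272 counts (10.7%), and 6 passed. The 15 genes with a poly(A) signal held 65.1% of the counts, most of them in Hist1h1c and Hist2h2be. The 10 variants had longest transcripts of 1069 to 2841 bases. No source used here says how messenger RNA was selected for the libraries, and the part of that step in these counts was not tested.

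**Figure D2:**
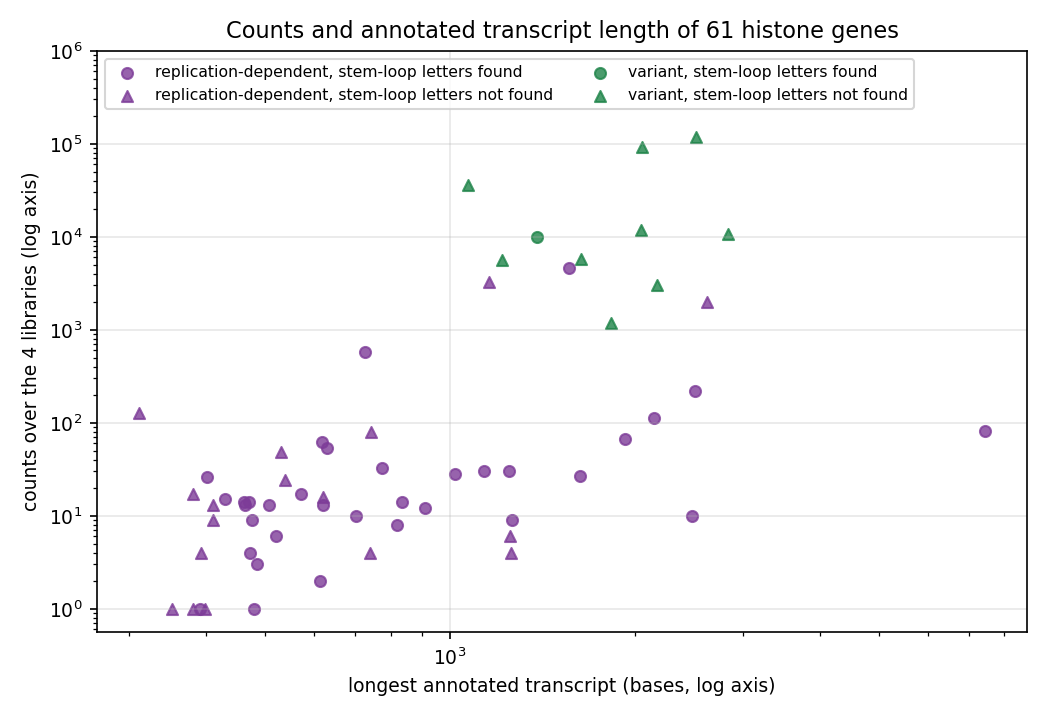
Counts summed over the 4 libraries (y axis, log scale) against the longest annotated transcript (x axis, bases, log scale) for the histone genes, by class (colour) and by whether the stem-loop letters follow the stop codon (circle, found; triangle, not found). All variants except H2afy2 and H2afj lie above every replication-dependent gene. Replication-dependent genes with more than 1000 counts all have transcripts over 1000 bases.

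All 10 variants were tested: 8 fell and 2 rose (0 with the offset for transcript length described below, 2 with a centred one). Their median log2 fold change was -0.87, beside 0.01 over all genes. Of the 10, 5 fell by at least 2-fold, beside 3.47% of all genes tested. The 4 with a mean over 100 CPM, H3f3b, H1f0, H2afz and H2afy, all fell, beside 49.9% of the 2485 genes at such levels, of which 2.29% fell by at least 2-fold.

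H1f0 (H1.0, chr15:79028450-79030504) had 318 and 314 CPM in the irradiated libraries, against 1336 and 1334 CPM in the unirradiated ones. It fell by 2.08 on the log2 scale (SE 0.0267), the largest fall among the variants. H1fx, the other linker histone variant (chr6:87980421-87981637), averaged 33.2 ± 0.65 CPM in irradiated and 66.9 ± 1.43 CPM in unirradiated cells and fell by 1.01 (SE 0.0689, edgeR adjusted p = 1.94e-47). The groups did not overlap in either gene. The edgeR p of H1f0, and that of H3f3b below, was too small to be held as a number.

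The H3.3 genes encode the same protein and moved in opposite directions. H3f3b (chr11:116021912-116027962) had 577 and 542 CPM in irradiated cells, against 1486 and 1524 CPM in unirradiated cells, and fell by 1.43 (SE 0.0246). H3f3a (chr1:180800832-180813943) had 106 and 104 CPM in irradiated cells, against 80.9 and 92.0 CPM in unirradiated cells, and rose by 0.28 (SE 0.0519, edgeR adjusted p = 2.46e-07). The groups did not overlap for either gene. For values per kilobase, the length of a gene is that of all its annotated exons merged. Per kilobase of exon, H3f3a made up 13.5% and 14.0% of H3.3 message in irradiated cells, against 4.42% and 4.88% in unirradiated cells. Summed H3.3 was 683 and 646 CPM in irradiated cells, against 1567 and 1616 CPM in unirradiated cells. With an offset for transcript length, which moves the median of all genes to -0.19, the log2 fold change of H3f3a was 0.086 (adjusted p = 0.137). A centred offset, chosen after seeing the data, takes out the length trend but keeps the library scaling. With it the log2 fold change of H3f3a was 0.29 (edgeR adjusted p = 1.12e-07). H3f3a shares 638 exon bases with Gm17275 on the opposite strand, which held 5.19% as many counts.

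The start regions of the H3.3 genes and of Hist1h1c, the most counted replication-dependent gene, are shown because H3f3b and Hist1h1c fell and H3f3a did not. Each is 300 bases around the start given by RefSeq (GRCm38.p6), which need not be the start of the longest GENCODE transcript, with CCAAT or its complement ATTGG, the octamer ATTTGCAT or its complement, and TATAAA or its complement in capitals:
H3f3b, chr11:116024455-116024754, minus strand: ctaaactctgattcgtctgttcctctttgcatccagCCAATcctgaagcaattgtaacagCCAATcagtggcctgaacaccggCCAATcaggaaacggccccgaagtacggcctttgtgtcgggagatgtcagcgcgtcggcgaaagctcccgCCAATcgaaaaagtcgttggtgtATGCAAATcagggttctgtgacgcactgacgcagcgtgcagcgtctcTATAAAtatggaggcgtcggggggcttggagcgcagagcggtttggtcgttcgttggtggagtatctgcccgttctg
H3f3a, chr1:180813556-180813855, minus strand: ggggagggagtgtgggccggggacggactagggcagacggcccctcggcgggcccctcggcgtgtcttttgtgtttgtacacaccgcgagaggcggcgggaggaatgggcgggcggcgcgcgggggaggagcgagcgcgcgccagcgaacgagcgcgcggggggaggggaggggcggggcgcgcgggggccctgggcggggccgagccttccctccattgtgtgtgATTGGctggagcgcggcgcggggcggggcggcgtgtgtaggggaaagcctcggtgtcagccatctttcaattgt
Hist1h1c, chr13:23738557-23738856, plus strand: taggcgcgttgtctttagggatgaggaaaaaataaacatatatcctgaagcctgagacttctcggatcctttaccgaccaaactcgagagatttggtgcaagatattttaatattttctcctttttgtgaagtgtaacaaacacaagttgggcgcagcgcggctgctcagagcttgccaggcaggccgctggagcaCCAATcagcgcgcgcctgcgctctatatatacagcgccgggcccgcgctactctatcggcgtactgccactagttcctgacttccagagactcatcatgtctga
H3f3b held CCAAT 4 times, the octamer and TATAAA, whereas H3f3a and Hist1h1c each held CCAAT once and neither of the other motifs. H2afv, which rose, also held CCAAT 4 times, without the octamer or TATAAA. The windows of H1f0, H1fx and H2afy, which fell, held none of these motifs. The H1f0 window ends at chr15:79028261, upstream of the GENCODE start of the gene at 79028450. It therefore does not show the bases next to that start. A promoter was matched for 46 of the 51 replication-dependent genes and for 9 of the 10 variants. Hist1h2bc, Hist2h2be and H2afx were among those without one. On either strand, CCAAT was in 39 of the 46 replication-dependent promoters (84.8%), in 6 of 9 variant promoters and in 37.9% of all 27025 promoters. It was in every matched H1, H2A, H2B and H3 promoter of the replication-dependent class and in 3 of 10 H4 promoters. The octamer was in 8 of 46 replication-dependent promoters, 5 of them H2A and 3 H2B, and in 1.75% of all promoters. TATAAA was in 28 of 46 (60.9%), in 1 of 9 variant promoters and in 14.2% of all promoters. These matches are letters in a window and do not show binding.

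The H2A.Z genes also differed. H2afz (chr3:137864487-137866922) had 237 and 243 CPM in irradiated cells, against 393 and 398 CPM in unirradiated cells, and fell by 0.72 (SE 0.0336, edgeR adjusted p = 8.03e-100). H2afv (chr11:6427229-6444443) had 53.3 and 55.0 CPM in irradiated cells, against 47.3 and 48.3 CPM in unirradiated cells, a rise of 0.18 (SE 0.067, edgeR adjusted p = 0.0133) that turned to -0.0082 with the length offset and was not called without irradiated replicate 2 (adjusted p = 0.13) or without unirradiated replicate 1 (adjusted p = 0.103). The centred offset gave 0.19 for H2afv (edgeR adjusted p = 0.00752). The groups did not overlap in either gene. Per kilobase of exon, H2afv made up 19.6% and 19.8% of H2A.Z message in irradiated cells, against 11.6% and 11.7% in unirradiated cells. The size of these shares depends on the lengths used. The merged exons of H2afz had 1776 bases and its longest protein-coding transcript 1069, whereas H2afv had 1633 by both measures.

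H2afx (H2A.X, chr9:44334694-44336077), whose transcript carries the stem-loop letters shown above and a poly(A) signal, had 54.6 and 58.8 CPM in irradiated cells, against 119 and 119 CPM in unirradiated cells. It fell by 1.07 (SE 0.0542, edgeR adjusted p = 8.97e-85), without overlap. Of 8 genes listed for H2A.X phosphorylation and the damage response around it, 4 rose and 4 fell, beside 30.4% and 30.3% of all genes tested. Mdc1, which binds phosphorylated H2A.X, averaged 428.5 ± 11.1 CPM in irradiated and 284 ± 5.22 CPM in unirradiated cells (log2 fold change 0.60, edgeR adjusted p = 5.76e-73). Prkdc, a kinase of H2A.X, rose by 0.50, and Trp53, a transcription factor of the damage response, by 0.43. Atm, another kinase of H2A.X, rose as well. Rnf8, a ubiquitin ligase at breaks and the only gene of the 8 with a mean under 10 CPM, fell by 0.78. Atr, Rnf168 and Trp53bp1 fell too.

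MacroH2A fell unevenly. H2afy2 (chr10:61738665-61784147) had 15.6 and 16.7 CPM in irradiated cells, against 41.1 and 33.2 CPM in unirradiated cells, and was 2.30-fold lower in irradiated cells (log2 SE 0.097, edgeR adjusted p = 4.44e-34). H2afy (chr13:56073619-56136361) averaged 97.7 ± 2.14 CPM in irradiated and 114 ± 2.01 CPM in unirradiated cells and fell by 0.22 (SE 0.05, edgeR adjusted p = 1.97e-05). H2afy2 shares 233 exon bases with Aifm2 on the opposite strand, which held 107% as many counts, and no source used here gives the strand setting. H2afj, an H2A variant (chr6:136808244-136810074), averaged 7.87 ± 0.267 CPM in irradiated and 13.2 ± 2.61 CPM in unirradiated cells and fell by 0.74 (edgeR adjusted p = 3.1e-06).

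**Figure D3:**
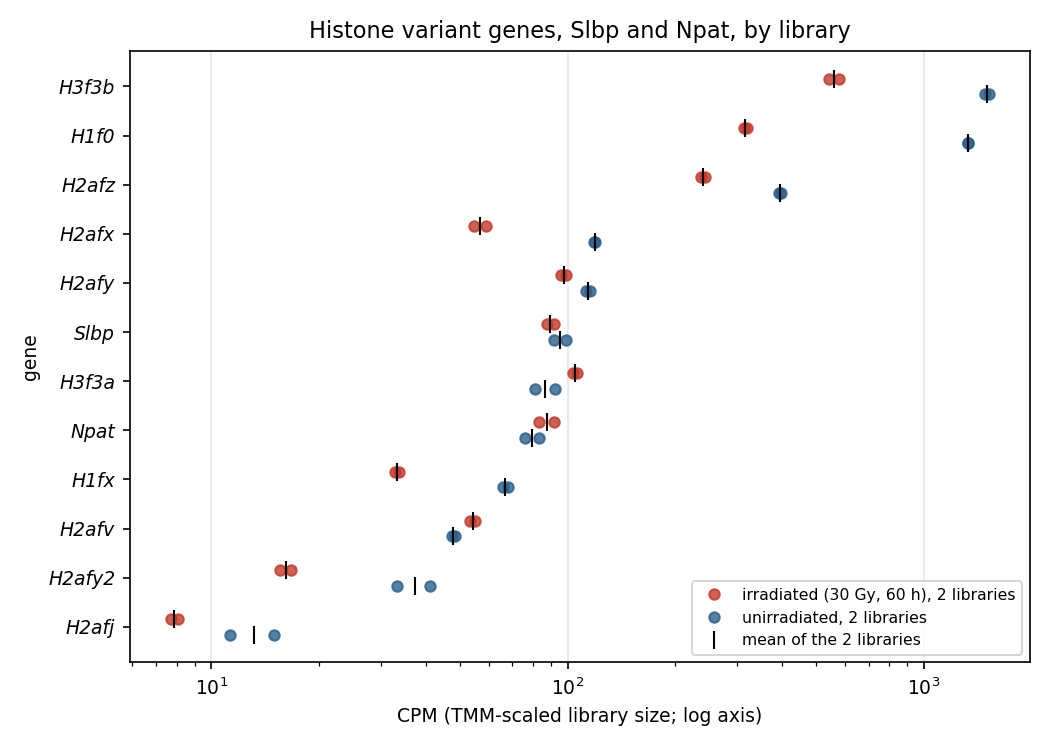
CPM per library of the 10 histone variants and of Slbp and Npat (x axis, log scale) by gene (y axis), for irradiated (red) and unirradiated (blue) libraries, with the mean of each group as a black line. H1f0 and H3f3b show the widest gaps. H3f3a and H2afv are higher in both irradiated libraries (H2afv turns with the length offset, but not with the centred one).

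**Figure D4:**
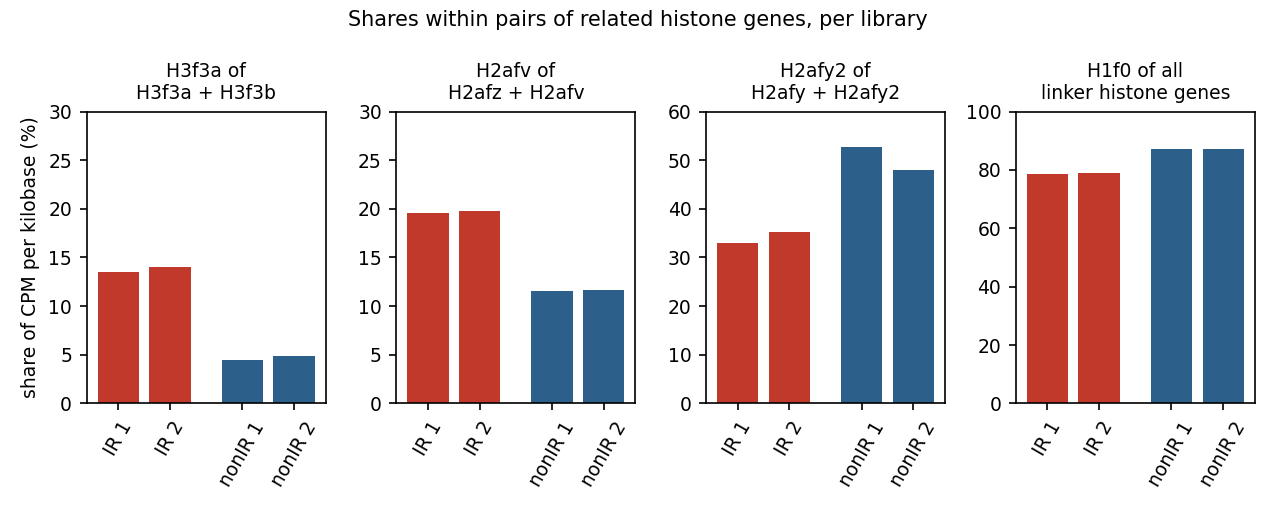
Share of CPM per kilobase (y axis, percent) within 3 pairs of paralogs and of H1f0 among the linker histone genes, per library (x axis). H3f3a and H2afv take larger shares in the irradiated libraries, and H2afy2 and H1f0 smaller ones. The height of the bars depends on the merged exon lengths used, which for H2afy far exceed its longest transcript.

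Per kilobase of exon, H3f3b ranked 1 and H1f0 ranked 2 in irradiated cells, at 193.9 and 182.2 CPM per kilobase for H3f3b and 154.8 and 152.6 for H1f0. In unirradiated cells H1f0 ranked 1, at 650.1 and 649.1 CPM per kilobase, and H3f3b ranked 2, at 499.3 and 512.1. H2afz ranked 3 and H2afx ranked 4 in both groups, and none of these 4 genes overlapped its neighbours in rank. H2afy and H2afy2 overlapped in unirradiated cells, at 17.0 and 16.6 CPM per kilobase for H2afy and 18.9 and 15.3 for H2afy2. The merged exons of H2afy had 6809 bases, but its longest protein-coding transcript had 2046, and for H2afy2 both lengths were 2175. The overlap of H2afy and H2afy2 and the order of genes can therefore depend on the length used. Hist1h1c ranked 10 in irradiated cells and 6 in unirradiated cells. Hist1h1c and Hist1h2bc were the replication-dependent genes with the highest levels per kilobase in both groups.

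Summed over each class, the losses were of similar size. The 51 replication-dependent genes summed to 63.3 and 57.0 CPM in irradiated cells, against 149.7 and 148.1 CPM in unirradiated cells, 2.48-fold lower. The 10 variants summed to 1502 and 1470 CPM in irradiated cells, against 3700 and 3740 CPM in unirradiated cells, 2.50-fold lower. H3f3b and H1f0 made up most of the variant sum. They averaged 560 and 316 CPM in irradiated cells, against 1505 and 1335 CPM in unirradiated cells. Every other variant fell less on the log2 scale or rose, so the match of the sums does not describe each gene. Replication-dependent genes held 4.05% and 3.73% of all histone CPM in irradiated cells, against 3.89% and 3.81% in unirradiated cells, and these ranges overlapped. By family, the ratios of irradiated to unirradiated sums were 0.33 for H1, 0.724 for H2A, 0.487 for H2B, 0.507 for H3 and 0.280 for H4 among replication-dependent genes, and 0.249 for H1, 0.65 for H2A and 0.418 for H3 among variants. Some replication-dependent sums were small: 1.25 CPM in irradiated and 1.73 CPM in unirradiated cells for H2A, and 1.29 and 2.55 CPM for H3. Of the replication-dependent H1 sum, Hist1h1c held 20.1 of 21.5 CPM in irradiated and 62.4 of 65.3 CPM in unirradiated cells. The 4 most counted replication-dependent genes gave a ratio of 0.383 and the other 47 a ratio of 0.604. The sums are descriptions and were not tested.

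**Figure D5:**
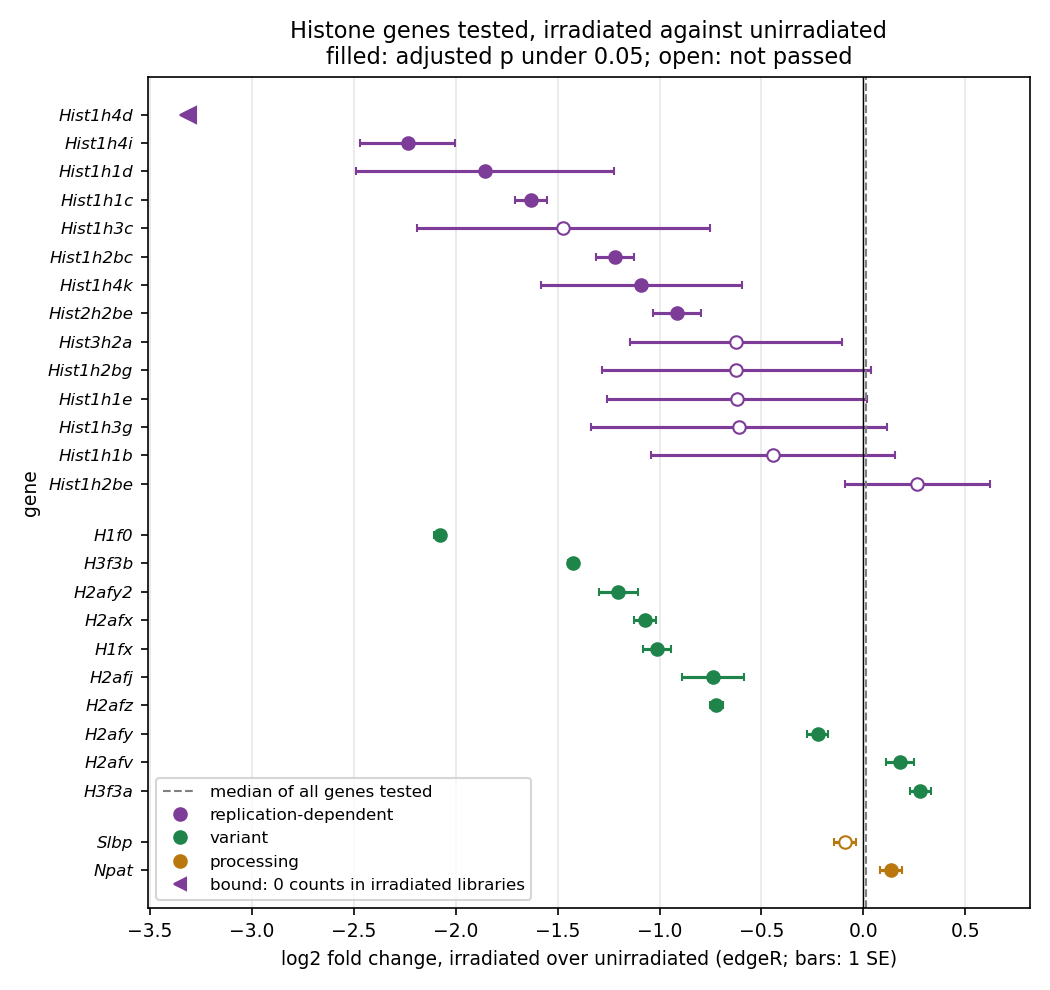
Log2 fold change of each tested histone gene, irradiated over unirradiated (x axis; bars, 1 SE), by gene (y axis) and class (colour). Filled points passed the test, open points did not, and the triangle marks the bound of Hist1h4d, whose irradiated libraries were at 0. Among the variants, H3f3a and H2afv alone lie right of 0, and H2afv turns with the length offset, but not with the centred one.

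Slbp (chr5:33634952-33652574), whose protein binds the stem-loop, had 91.7 and 87.3 CPM in irradiated cells, against 91.7 and 98.8 CPM in unirradiated cells, which gave -0.09 on the log2 scale (SE 0.0524, edgeR adjusted p = 0.126). Npat (chr9:53537047-53574342) had 91.6 and 83.0 CPM in irradiated cells, against 76.1 and 83.0 CPM in unirradiated cells, which gave 0.14 on the log2 scale (SE 0.054, edgeR adjusted p = 0.0221). For both genes the nearest libraries of the groups were almost equal. The Npat call was lost without irradiated replicate 1 (adjusted p = 0.513), without unirradiated replicate 1 (adjusted p = 0.453) and with DESeq2 (adjusted p = 0.108), and its sign turned with the length offset (-0.072). Slbp passed the test with the length offset (adjusted p = 7.72e-08) and without unirradiated replicate 1 (adjusted p = 0.0231).

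Of 22 other genes of histone transcription and 3′-end processing, 13 fell and 3 rose (1 without irradiated replicate 2), beside 30.3% and 30.4% of all genes tested, with a median log2 fold change of -0.23. The largest change was in Cstf2, a cleavage stimulation subunit, at 69.2 ± 2.51 CPM in irradiated and 127.5 ± 3.58 CPM in unirradiated cells, a fall of 0.88 (SE 0.0521, edgeR adjusted p = 1.4e-62). Cpsf2, of the cleavage complex, fell by 0.76. A further 8 genes of the list were named after their values were seen. Lsm11, a part of the U7 particle, fell by 0.52 (adjusted p = 1.07e-07), and its partner Lsm10 was at 0.21 on the log2 scale (adjusted p = 0.154). Zfp473, which also acts with the U7 particle, rose by 0.74 (adjusted p = 0.0463) at 2.73 CPM in irradiated and 1.63 CPM in unirradiated cells. Hinfp, a regulator of H4 transcription, rose by 0.39 (adjusted p = 0.000979), and Casp8ap2, of the histone locus body, was at 0.13 (adjusted p = 0.0727). Srrt, of the cap-binding machinery, fell by 0.65, the endonuclease gene Cpsf3 by 0.28 and the exonuclease gene Eri1 by 0.12. Sympk, a scaffold of the cleavage complex, rose by 0.20 and turned to -0.072 with the length offset.

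Of 29 histone chaperones and importers, 16 fell and 8 rose, beside the same 30.3% and 30.4%. Anp32e, which removes H2A.Z from chromatin, averaged 144 ± 3.42 CPM in irradiated and 363 ± 6.65 CPM in unirradiated cells and fell by 1.34 (SE 0.0364, edgeR adjusted p = 2.91e-286), and Set fell by 0.94. Of 32 S phase genes, 13 fell and 8 rose, beside the same shares of all genes, with a median log2 fold change of -0.05. Ccne1 (cyclin E1) fell by 1.63 (edgeR adjusted p = 1.97e-24) and Tk1 (thymidine kinase) by 1.41, whereas Mcm6, the most highly expressed of them, was at 0.05 on the log2 scale (adjusted p = 0.117) and at -0.12 with the length offset. Cenpa, the centromeric H3 variant, which lies outside the naming rule, had 183.9 and 190.8 CPM in irradiated cells, against 121.8 and 120.8 CPM in unirradiated cells, and rose by 0.63 (SE 0.0428, edgeR adjusted p = 3.81e-47).

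Of 25 tested genes for other RNAs that carry no poly(A) tail, 1 rose and 4 fell (0 and 0 with DESeq2), beside 30.4% and 30.3% of all genes tested, with a median log2 fold change of -0.48. Their summed CPM was 20.1 and 32.3 in irradiated cells, against 25.8 and 24.5 in unirradiated cells, and these ranges overlapped. Rn7sk, the most counted of them, had 37 and 242 counts in irradiated cells, against 25 and 21 in unirradiated cells (edgeR adjusted p = 0.304), so the irradiated libraries differed from each other. Of 16 tested mitochondrial genes, 9 rose and 2 fell, beside the same 30.4% and 30.3%, and their sums were 25380 and 25100 CPM in irradiated cells, against 22270 and 23230 CPM in unirradiated cells. The part of either in the histone values was not tested.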

How the data were processed

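The deposited file holds whole-number counts per Ensembl gene made by the authors, 1 column for each of the 4 libraries, neither normalized nor pooled. Per the submitters' processing notes, the tools included HTSeq, HISAT2, HISAT and DESeq2, with mm10 as the genome build and no roles stated. No source used here gives the strand setting or what was done with reads that match several genes. The members and gene lists were chosen with earlier results of these data known.

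Symbols, positions (GRCm38) and exons came from GENCODE M21. The counts were tested with edgeR 4.0.16 in R 4.3.3 (TMM, filterByExpr by group, robust glmQLFit, glmQLFTest) with irradiation as the only term, with Benjamini-Hochberg adjustment across all 15298 genes kept, which held 99.9% of the counts. A gene was called at an adjusted p under 0.05. CPM are TMM-scaled. The test was checked on simulated counts. Named genes were all variants, both processing genes, all tested replication-dependent genes, the 3 most counted untested ones, and in each list the 2 largest called changes at a mean of at least 5 CPM and the highest level; 8 genes of histone 3′-end processing and transcription, and the other members of the H2A.X list, were added after their values were seen. Alternatives were other size factors, no filter, DESeq2 1.42.0, a replicate block, a length offset and leaving out each library. Differences between replicates 1 and 2 did not correlate between the groups (r = -0.00454 over 15298 genes). That cannot exclude that libraries of the same number shared a culture or day.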

Additional observations from a re-analysis of the deposited data

How the results depend on the processing

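The number of replication-dependent genes that fell was 7, and lay between 5 and 8 over the alternatives run (5 with DESeq2, 8 with the length offset, 5 to 6 with 1 library left out), and 0 rose in any of them. All alternatives gave 8 variants that fell. The number of variants that rose was 2, 0 with the length offset and 1 to 2 with 1 library left out. Of Slbp and Npat, 1 rose, against 0 without a filter, with DESeq2 and with the length offset, and 0 to 1 with 1 library left out, while 0 fell, against 1 with the length offset and 0 to 1 with 1 library left out. Of the 3′-end processing genes, 3 rose, with 1 to 4 when 1 library was left out. Of the RNAs without a poly(A) tail, 1 rose (0 with DESeq2, 2 with the replicate block, 0 to 2 with 1 library left out) and 4 fell (2 without a filter, 0 with DESeq2, 2 with the block, 1 to 2 with 1 library left out).

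With the length offset 3141 genes rose and 6734 fell, against 4655 and 4634, and the median of all genes was -0.19. There the log2 fold changes of H2afv (-0.0082), Npat (-0.072), Mcm6 (-0.12), Sympk (-0.072) and mt-Co1 (-0.053) were reversed. A centred offset, chosen after seeing the data, left the median at 0.01 and reversed none of the genes named. With it 2 variants rose. With 1 library left out, Hist1h2bg ranged between -1.16 and 0.23 and Hist1h3g between -1.18 and 0.28. With column totals in place of TMM, log2 ratios of summed CPM were -0.98 for replication-dependent H2B, -1.27 for all variants, -1.95 for variant H1, -0.56 for variant H2A, -1.20 for variant H3 and -0.53 for H2A.Z. Column totals leave out the TMM factors, which were 1.021 and 1.020 in the irradiated libraries and 0.982 and 0.978 in the unirradiated ones. The cause of the other shifts was not tested. The replicate block gave 6 replication-dependent genes that fell, and the shared numbers are not known to pair the libraries. At these counts 37 of the 51 replication-dependent genes could not be tested.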
